A study of Homo sapiens and Mus musculus with 24 samples.

Results

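Interferon-stimulated genes are the genes that cells switch on after an interferon has bound its receptor, and 50 of them were chosen by name to follow this programme in intestinal epithelial cells with altered DNMT3A, a de novo DNA methyltransferase. All 50 were found among the 58051 gene identifiers of the human files, and 41 had a gene of the same name among the 29307 of the mouse files. The rule lists them by name, but earlier results of these data were known when the list was made, and part of the members belong to a gene list that the study drew from these samples. The human samples were RNA-seq libraries of Caco-2, a line from a human colorectal adenocarcinoma, in 4 genotypes. These were WT (n = 4), ΔDNMT3A (n = 4), a clonal line made by CRISPR-Cas9, and the lines named DNMT3A1 (n = 3) and DNMT3A2 (n = 4), in which ΔDNMT3A cells carry a TY1-tagged copy of the respective DNMT3A isoform in a puromycin-selected piggyBac vector. A 4th DNMT3A1 library was not analysed here. The study's methods describe clonal expansion of these lines and a check of the protein by western blot. How many clones stand behind the libraries is not given in the sources used here, so that clone and genotype cannot be told apart. ΔDNMT3A, DNMT3A1 and DNMT3A2 share the same deletion. The mouse samples were EpCAM-positive colonic epithelial cells of 12 week old animals at steady state. They came from 4 Dnmt3a fl/fl controls with exons 13 to 17 floxed and 4 Dnmt3a ΔIEC animals. In the latter the same alleles were recombined by a Cre under the Villin promoter, which is active in the intestinal epithelium. The study describes the model as made in C57BL/6 mice, with the floxed line on C57BL/6J and the Cre line on C57BL/6JxSJL/J. The study added no interferon to these samples, so all values below are levels without stimulation.

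Type I and type III interferons bind receptors that activate JAK kinases, which phosphorylate STAT proteins. With IRF9 these form a complex that binds a DNA element called ISRE near its target genes, whereas interferon-γ acts mainly through an element called GAS. The products of the target genes bind foreign RNA (the IFIT and OAS families, RIG-I, which DDX58 encodes, and MDA5, encoded by IFIH1), block viruses at membranes (IFITM proteins, BST2), conjugate the ubiquitin-like protein ISG15 to other proteins (UBE2L6, HERC5) or remove it (USP18), and act as antiviral or immunity-related GTPases (MX and GBP proteins). Epithelial cells express many of them at a low level without added interferon.

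The Caco-2 libraries held between 22104408 and 42161299 reads assigned to genes and the mouse libraries between 16943626 and 24921248. Levels are given as CPM, counts scaled to a common library size after TMM scaling, and fold changes are log2 values from edgeR's quasi-likelihood test with their standard errors and with p-values adjusted by Benjamini-Hochberg over all genes tested. A call means an adjusted p under 0.05. DNMT3A itself, counted over the whole gene, averaged 64.6 ± 2.27 CPM in the WT libraries (SD, n = 4), 20.7 ± 1.22 in those of ΔDNMT3A, 38 ± 1.23 in the DNMT3A1 libraries (n = 3) and 21.9 ± 1.4 in those of DNMT3A2, a log2 change of -1.65 (SE 0.0428, adjusted p = 4.3e-20) for ΔDNMT3A against WT and of 0.07 (SE 0.0574, adjusted p = 0.272) for DNMT3A2 against ΔDNMT3A. The gene-level count therefore fell in ΔDNMT3A and rose in DNMT3A1, by 0.87 (SE 0.0522, adjusted p = 1.91e-11) against ΔDNMT3A, while a difference between DNMT3A2 and ΔDNMT3A was not detected. From immunoblots, the study reports complete loss of DNMT3A protein in ΔDNMT3A and renewed expression of either isoform in its line. The RNA count over the gene is not a measure of that protein. In the mouse, Dnmt3a was at 93.9 ± 7.7 CPM in fl/fl and 46.1 ± 3.3 in ΔIEC, with -1.03 (SE 0.0913, adjusted p = 0.000763). A count over the whole gene also takes in transcript outside the deleted exons. All 10 epithelial markers were at 1 CPM or more in WT, ΔDNMT3A and DNMT3A1 and 9 of 10 in DNMT3A2. The summed epithelial markers ranged from 12900 to 13600 CPM in ΔDNMT3A, from 10300 to 10500 in WT, from 10900 to 11200 in DNMT3A1 and from 9000 to 9280 in DNMT3A2, and their part in the results below was not tested. The summed leukocyte list of 20 genes ranged from 28.3 to 30.7 CPM in WT, 31.5 to 37.0 in ΔDNMT3A, 33.8 to 34.9 in DNMT3A1 and 28.6 to 31.5 in DNMT3A2, and its part in the results was not tested either. In ΔDNMT3A 5 of the 20 were at 0, among them PTPRC, MS4A1, GZMB and NKG7, and 4 were at 1 CPM or more. Of the 6 tested against WT, 3 were called higher, CSF1R (17.7 CPM against 4.85, a log2 change of 1.85), CD8A (0.515 CPM against 0.162) and ITGAM (1.41 CPM against 0.666), and 1 was called lower, CD14 (10.8 CPM against 21.8, a log2 change of -1.03). In the mouse, the sum over 21 identifiers of the leukocyte list was 21.5 to 27.9 CPM in fl/fl and 24.3 to 28.3 in ΔIEC, with 3 genes at 1 CPM or more in either group. All 10 epithelial markers were detected in the mouse.

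The interferon genes themselves gave almost no reads in Caco-2. Of 9 type I, II and III interferon genes, 4 had no read in any of the 15 libraries, and the highest count of any of the 9 in any library was 4 reads. The members are therefore described here at their level without added interferon. Per kilobase of exon, which allows levels of different genes to be compared, BST2 was the most abundant member in WT (109 CPM per kilobase), followed by ADAR (49.2), LGALS3BP (42.5), IFI6 (29.9) and ISG15 (23.4). IFI44 had no read in any Caco-2 library, IFI44L at most 1 read, and RSAD2, CMPK2 and IFI16 at most 4, 10 and 9 reads. These 5 members passed the filter on low counts in none of the 6 comparisons between Caco-2 lines, 39 passed in all 6, and 45 in at least 1. A member that is near 0 in some lines passes only through the lines where it is high, so the counts below name how many members were tested.

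Many start regions of these genes contain the core letters of the element to which the interferon complex binds. RefSeq start regions (GRCh38.p14), each of 300 bases with 250 before and 50 after the first base of a transcript, were found for 40 of the 50 members, 56 windows in all because some genes have several start sites. The members without an entry were IFIT2, IFITM2, OAS2, OASL, DHX58, USP18, TRIM22, MX2, GBP2 and PML. The core of the ISRE was searched as GAAANNGAAA on either strand, and matches can overlap. It was present in at least 1 window of 28 of the 40 members (70.0%) and of 1195 of all 27305 genes with such windows (4.38%). The GAS core, TTCNNNGAA, was found for 10 members (25%) and 9.38% of all genes. A match is a sequence description and not a measured binding site. A few windows are printed below, read 5′ to 3′ on the strand of the gene, in lower case with each ISRE core in capitals. IFI27, IFI6 and IFIT1 are shown because they fell most in the DNMT3A1 line among members with at least 1 CPM, ISG15 and MX1 because they were already lower in ΔDNMT3A, and HERC5 and HERC6 because they went apart in the DNMT3A1 and DNMT3A2 lines. For a gene with several windows, the one with most matches is given, and among equals the one with the lowest start position.
IFI27 (chr14:94110486-94110785, plus strand): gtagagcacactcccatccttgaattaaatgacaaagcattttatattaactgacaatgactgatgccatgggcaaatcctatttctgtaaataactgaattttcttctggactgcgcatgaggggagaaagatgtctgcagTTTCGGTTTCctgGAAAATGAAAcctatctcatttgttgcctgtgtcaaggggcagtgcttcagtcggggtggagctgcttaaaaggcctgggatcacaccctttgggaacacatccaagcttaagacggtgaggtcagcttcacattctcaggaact
IFI6 (chr1:27672143-27672442, minus strand): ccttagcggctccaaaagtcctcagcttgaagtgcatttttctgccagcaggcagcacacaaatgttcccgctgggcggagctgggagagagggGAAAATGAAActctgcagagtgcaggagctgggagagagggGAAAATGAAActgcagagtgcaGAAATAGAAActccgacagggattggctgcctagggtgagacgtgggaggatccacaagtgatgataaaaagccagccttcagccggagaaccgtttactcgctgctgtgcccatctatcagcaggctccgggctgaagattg
IFIT1 (chr10:89392373-89392672, plus strand): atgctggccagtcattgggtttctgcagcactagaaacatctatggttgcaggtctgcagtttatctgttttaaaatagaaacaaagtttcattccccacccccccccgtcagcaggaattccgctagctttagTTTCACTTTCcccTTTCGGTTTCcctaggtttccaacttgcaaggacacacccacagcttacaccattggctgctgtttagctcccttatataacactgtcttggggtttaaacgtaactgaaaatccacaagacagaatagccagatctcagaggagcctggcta
ISG15 (chr1:1013247-1013546, plus strand): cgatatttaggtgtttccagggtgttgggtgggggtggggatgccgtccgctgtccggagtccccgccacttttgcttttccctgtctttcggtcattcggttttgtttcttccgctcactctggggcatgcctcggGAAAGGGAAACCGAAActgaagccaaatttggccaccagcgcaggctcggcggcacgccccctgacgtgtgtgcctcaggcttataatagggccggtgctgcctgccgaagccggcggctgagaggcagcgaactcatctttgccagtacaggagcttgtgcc
MX1 (chr21:41420308-41420607, plus strand): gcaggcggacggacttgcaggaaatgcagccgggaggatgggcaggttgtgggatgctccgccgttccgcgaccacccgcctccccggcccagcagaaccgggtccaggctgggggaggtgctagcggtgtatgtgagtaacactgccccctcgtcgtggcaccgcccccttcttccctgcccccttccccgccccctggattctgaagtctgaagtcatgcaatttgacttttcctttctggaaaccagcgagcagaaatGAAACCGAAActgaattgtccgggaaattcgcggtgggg
HERC5 (chr4:88456869-88457168, plus strand): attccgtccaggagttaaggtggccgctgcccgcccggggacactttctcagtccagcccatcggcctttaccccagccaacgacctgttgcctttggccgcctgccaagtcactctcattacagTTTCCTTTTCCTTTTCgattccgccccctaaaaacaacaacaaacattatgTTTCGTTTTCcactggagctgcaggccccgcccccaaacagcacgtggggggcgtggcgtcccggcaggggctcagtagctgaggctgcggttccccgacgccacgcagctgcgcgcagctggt
HERC6 (chr4:88378602-88378901, plus strand): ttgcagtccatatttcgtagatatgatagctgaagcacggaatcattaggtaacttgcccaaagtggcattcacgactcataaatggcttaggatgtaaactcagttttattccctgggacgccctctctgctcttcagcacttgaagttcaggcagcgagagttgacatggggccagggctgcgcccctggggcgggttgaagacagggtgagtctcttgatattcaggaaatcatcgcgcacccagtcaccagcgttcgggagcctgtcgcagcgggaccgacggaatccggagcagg

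In these windows IFI6 and HERC5 held 3 core matches each, IFI27, IFIT1 and ISG15 held 2 each, and MX1 held 1, which lies after the start of the transcript. Another MX1 window (chr21:41431800-41432099), not printed, also held 1 match, 196 bases before its start. The neighbours HERC5 and HERC6 differ here, since the HERC6 window held no match. The windows also differ in CG dinucleotides, the substrate of DNMT3A. IFI27 and IFIT1 had 4 each, IFI6 had 9, HERC6 16, ISG15 and MX1 20 each and HERC5 21. The other MX1 window with a match had 6. Over the 56 member windows the median was 8 (range 0 to 45), and over all 35116 windows it was 14. The members that were higher in ΔDNMT3A than in WT had a median of 6 CG over 20 windows and an ISRE core in 12 of 16 genes, and those that were lower had a median of 20 over 13 windows and a core in 7 of 10 genes. Those not past the threshold had a median of 12 over 13 windows and a core in 6 of 9 genes. A gene with several windows enters these medians several times, and a link between CG number and change was not tested. DNA methylation was not measured in these files.

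Loss of DNMT3A was first compared with WT. Of the 44 members tested, 22 were higher in ΔDNMT3A (50.0% of them, where 31.2% of all genes tested were called higher) and 11 were lower (25%, where 31.0% of all genes were), and 11 did not pass. The median log2 change of the members was 0.27, and that of all genes was -0.01. Most changes were small. A change of at least 2-fold was called for 8 members upward, beside 4.73% of all genes, and for 2 downward, beside 3.79%. Members of the same family were called in opposite directions.

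**Figure D1:**
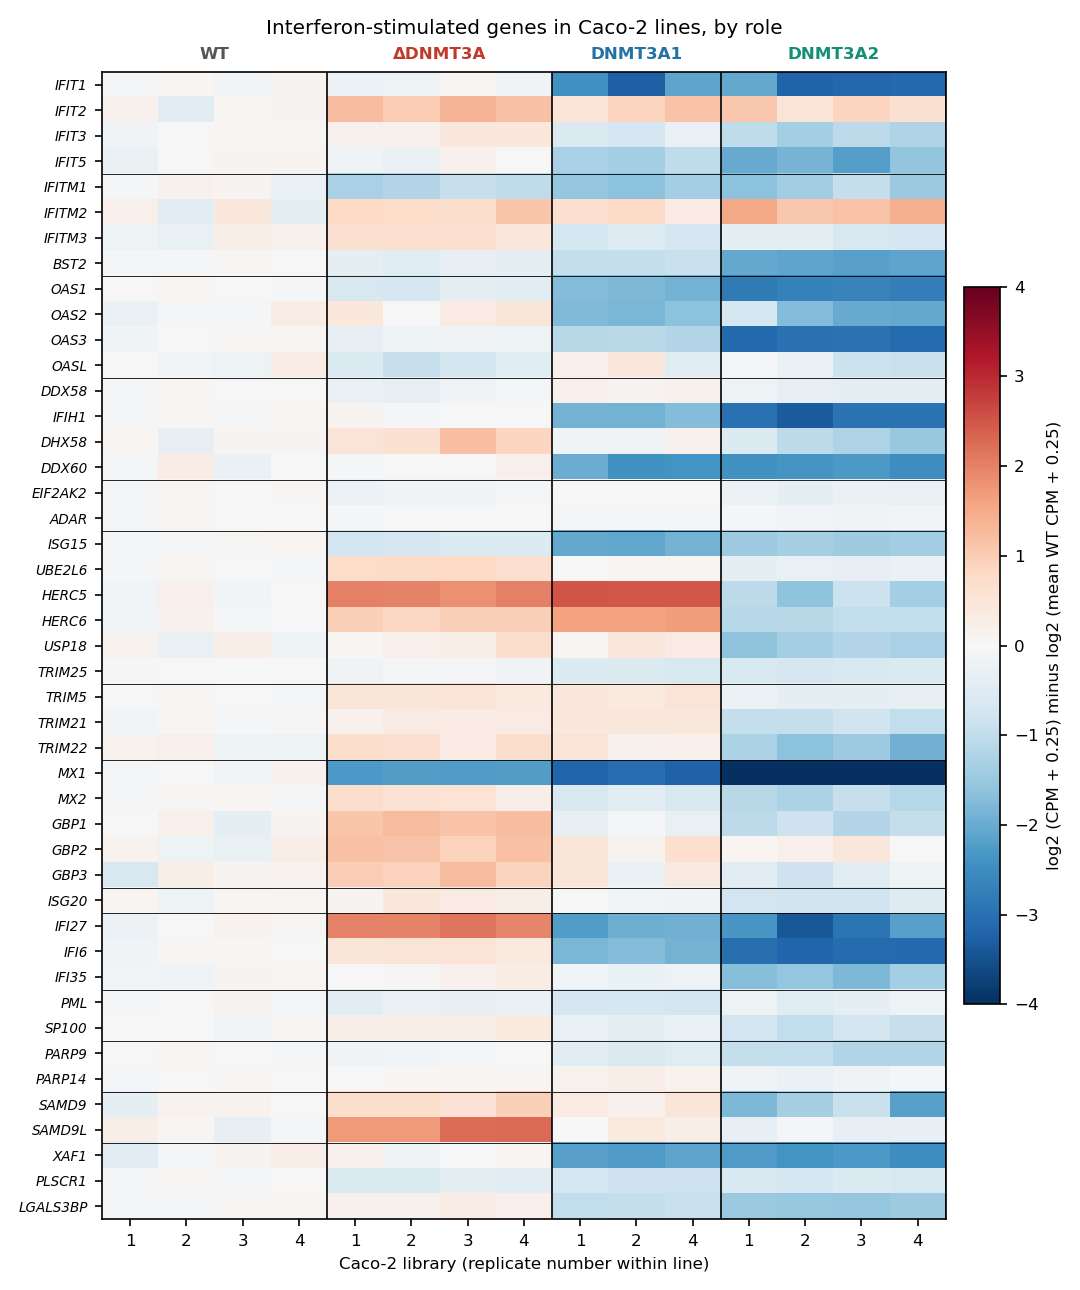
Colour gives, for each of the 45 members tested in at least 1 Caco-2 comparison (rows, grouped by role with thin lines between roles) and each of the 15 libraries (columns, numbered by replicate within a line), log2 of CPM + 0.25 minus the same for the WT mean; the scale ends at 4 in either direction, which MX1 in DNMT3A2 exceeds. ΔDNMT3A holds rows of either colour, and the DNMT3A1 and DNMT3A2 columns are blue in most rows, with HERC5 and HERC6 red in DNMT3A1 and blue in DNMT3A2.

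The largest rises among members with at least 1 CPM were those of IFI27 and HERC5. IFI27 encodes a small mitochondrial protein induced by interferon. IFI27 (ENSG00000165949, chromosome 14, 94104836 to 94116698) was at 3.19, 3.91, 4.24 and 3.96 CPM in the WT libraries, at 15.9, 15.8, 17.9 and 15.5 in those of ΔDNMT3A, at 0.624, 0.804 and 0.816 in the DNMT3A1 libraries and at 0.553, 0.138, 0.283 and 0.648 in those of DNMT3A2. Every ΔDNMT3A library exceeded every WT library, with a log2 change of 2.08 (SE 0.0815, adjusted p = 1.38e-16). HERC5, the main ligase that attaches ISG15 to newly made proteins, rose to the same degree, by 2.08 (SE 0.0938, adjusted p = 2.1e-15). The 4 WT libraries held 2.03, 2.57, 2.04 and 2.19 CPM of HERC5 and the 4 ΔDNMT3A libraries 9.62, 9.47, 8.48 and 9.7. HERC6, its neighbour on chromosome 4, rose from 3.67, 4.6, 3.79 and 4.01 CPM to 7.95, 7.34, 7.94 and 8.04, by 0.95 (SE 0.0848, adjusted p = 6.74e-10). UBE2L6, which encodes the conjugating enzyme that hands ISG15 to HERC5, was at 19.1, 20.8, 20.1 and 18.7 CPM in WT and at 32.7, 33.6, 34.4 and 31.8 in ΔDNMT3A, a rise of 0.74 (SE 0.0477, adjusted p = 1.78e-12). The groups did not overlap for any of these 4 genes, which were named because of their large changes. Of all genes tested, 62.2% were called in this comparison, and the share without overlap is not given here.

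ISG15 itself went the other way. It was at 21, 21.3, 22.7 and 23.3 CPM in WT and at 12.9, 13.8, 14.9 and 14.9 in ΔDNMT3A, a log2 change of -0.66 (SE 0.0591, adjusted p = 7.16e-10). Of the 6 members in the list for ISG15 conjugation, 3 were called higher and 2, ISG15 and TRIM25, lower, where 31.2% and 31.0% of all genes were. USP18, which removes ISG15, did not pass (0.34, adjusted p = 0.054). MX1, a GTPase that blocks the nucleocapsids of many viruses, fell furthest. Its WT libraries held 9.17, 9.78, 9.12 and 11 CPM and the ΔDNMT3A libraries 1.77, 1.89, 1.82 and 1.86, a log2 change of -2.42 (SE 0.0959, adjusted p = 1.57e-16). Its neighbour MX2 on chromosome 21 rose instead, by 0.62 (SE 0.154, adjusted p = 0.00114). Within the OAS family, which makes the second messenger that activates RNase L, OAS1 fell from 28, 30, 28 and 26.9 CPM to 18, 17.5, 21.9 and 20.5, with a log2 change of -0.55 (SE 0.0599, adjusted p = 2.16e-08), OAS3 fell, with a log2 change of -0.22 (SE 0.0456, adjusted p = 0.000204), and OAS2 did not pass (0.37, adjusted p = 0.0914).

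The guanylate-binding proteins, GTPases that attack the vacuoles of intracellular microbes, rose together. GBP1 was at 1.82, 2.14, 1.31 and 1.98 CPM in WT and at 4.18, 4.71, 4.32 and 4.58 in ΔDNMT3A (1.28, SE 0.122, adjusted p = 2.17e-09). GBP3 was at 0.299, 0.761, 0.67 and 0.694 CPM in WT and at 1.46, 1.36, 1.79 and 1.33 in ΔDNMT3A, with a change of 1.28 (SE 0.222, adjusted p = 2.23e-05). All 3 GBP genes passed, where 31.2% of all genes were called higher, GBP2 with 1.55 (SE 0.248, adjusted p = 7.57e-06). Among the IFIT genes, whose products bind RNA that lacks the host's cap structure, IFIT2 was at 0.776, 0.435, 0.701 and 0.72 CPM in WT and 1.89, 1.57, 2.09 and 1.79 in ΔDNMT3A, a change of 1.44 (SE 0.185, adjusted p = 3.28e-07), and IFIT3 rose by 0.28 (SE 0.0772, adjusted p = 0.00278). IFIT1, at 10.4, 11.6, 10.1 and 11.8 CPM in WT and 9.36, 9.44, 11.7 and 9.93 in ΔDNMT3A, overlapped between the groups (-0.14, SE 0.0764, adjusted p = 0.126).

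The IFITM proteins stop viruses from fusing with membranes, and their 3 genes lie within 19.9 kilobases on chromosome 11. IFITM3 was at 7.91, 7.35, 10.7 and 10.3 CPM in WT and 14.2, 14.3, 14.2 and 12.4 in ΔDNMT3A (0.59, SE 0.0906, adjusted p = 4.95e-06). IFITM2 rose by 1.14 (SE 0.257, adjusted p = 0.000473) and IFITM1 fell by 1.48 on the log2 scale (SE 0.222, adjusted p = 3.12e-06), so that neighbours again moved apart, while BST2, which tethers budding virus particles, changed by -0.41 (SE 0.0344, adjusted p = 2.87e-10). These 3 IFITM genes are close copies, and reads that match several of them equally were not counted. The annotated span of IFITM2 (307631 to 315272) also contains that of IFITM1 (313506 to 315272) on the same strand. Both had few reads, IFITM1 39 to 43 per library in WT and 14 to 16 in ΔDNMT3A, and IFITM2 8 to 22 and 27 to 42. The part of the overlap in their opposite calls was not tested. Among the helicases that sense RNA, DHX58, which encodes LGP2, was at 0.806, 0.543, 0.829 and 0.823 CPM in WT and at 1.19, 1.27, 2.06 and 1.56 in ΔDNMT3A (0.97, SE 0.207, adjusted p = 0.000275), whereas IFIH1 (-0.001, adjusted p = 0.989) and DDX60 (0.04, adjusted p = 0.853) did not pass. DDX58 was called lower, with a log2 change of -0.21 (SE 0.0566, adjusted p = 0.00281), with libraries that overlapped.

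All 3 TRIM restriction factors were called higher, where 31.2% of all genes were. TRIM22 was at 0.926, 0.978, 0.701 and 0.668 CPM in WT and at 1.5, 1.42, 1.08 and 1.49 in ΔDNMT3A (0.76, SE 0.191, adjusted p = 0.00136), and TRIM5 and TRIM21 rose by 0.48 and 0.28. The tested genes around them on chromosome 11 were raised as well. Their median log2 changes were 0.196 around TRIM5 (28 of 48 higher), 0.196 around TRIM21 (27 of 48) and 0.235 around TRIM22 (29 of 48). The part of this stretch in the TRIM values was not tested. SAMD9, which restricts poxviruses, was at 0.955, 1.49, 1.47 and 1.34 CPM in WT and at 2.32, 2.31, 2.09 and 2.76 in ΔDNMT3A (0.85, SE 0.153, adjusted p = 3.96e-05). SAMD9L, its neighbour on chromosome 7, named here after its values were seen, had 0 to 4 reads in the WT libraries and 26 to 37 in ΔDNMT3A (adjusted p = 1.31e-08). The 49 tested genes around SAMD9L had a median log2 change of -0.51, and 42 of them were called lower. The dsRNA-activated kinase gene EIF2AK2 (-0.15) was called lower, and the RNA-editing enzyme gene ADAR (-0.01, adjusted p = 0.874) and the ADP-ribosyltransferase genes PARP9 and PARP14 (-0.10 and 0.04) did not pass. LGALS3BP, ISG20, IFI6 and SP100 were among those called higher, by 0.20, 0.26, 0.48 and 0.28, and PLSCR1, PML and TRIM25 among those called lower, with a log2 change of -0.52, -0.35 and -0.12.

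The lines made to carry an isoform were compared with ΔDNMT3A next. In DNMT3A1, 31 of the 44 members tested were lower than in ΔDNMT3A (70.5%, where 30.3% of all genes were called lower) and 6 were higher (13.6%, where 30.4% were), with a median log2 change of -0.68 beside 0.01 for all genes. In DNMT3A2, 40 of 44 were lower (90.9%, where 34.1% of all genes were) and 1, IFITM2, was higher (2.27%, where 33.8% were), with a median of -1.75 beside 0.004. The call of IFITM2 rested on DNMT3A2 replicate 1, without which no member was called higher. At a change of at least 2-fold, 17 members were lower in DNMT3A1, beside 3.14% of all genes, and 32 in DNMT3A2, beside 7.47%, and none was higher in either line, beside 5.18% and 4.43%. The comparisons share the 4 ΔDNMT3A libraries. Over the 39 members tested in all 6 comparisons, 27 were lower in DNMT3A1 and 36 in DNMT3A2.

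**Figure D2:**
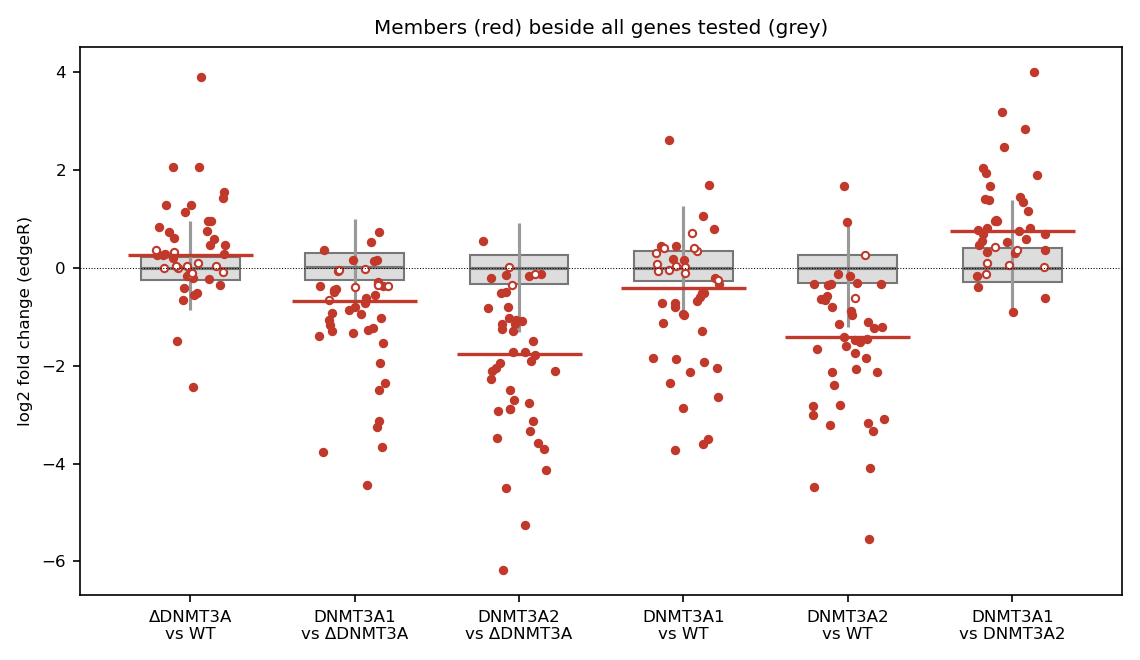
Log2 fold changes (vertical axis) of the tested members in the 6 Caco-2 comparisons: filled points passed an adjusted p of 0.05, open points did not, and the red line is the median of the members. Grey boxes span the 25th to 75th percentile of all genes tested, with their median, and grey lines the 5th to 95th percentile. The member medians are 0.27, -0.68, -1.75, -0.42, -1.40 and 0.76 from left to right, and those of all genes lie between -0.01 and 0.01.

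IFI27 fell furthest among members with at least 1 CPM. From 15.9, 15.8, 17.9 and 15.5 CPM in the ΔDNMT3A libraries it came down to 0.624, 0.804 and 0.816 in DNMT3A1 and to 0.553, 0.138, 0.283 and 0.648 in DNMT3A2, with a log2 change of -4.43 (SE 0.117, adjusted p = 7.45e-17) and -5.25 (SE 0.15, adjusted p = 4.56e-19). IFI6, which encodes a related small protein of the mitochondrion and endoplasmic reticulum, was at 23.7, 27, 26.9 and 26 CPM in the WT libraries, at 36.1, 36.8, 38.3 and 34.3 in those of ΔDNMT3A, at 7.09, 7.58 and 6.76 in the DNMT3A1 libraries and at 2.96, 2.63, 2.87 and 2.75 in those of DNMT3A2. The 4 groups of IFI6 did not overlap, and the changes against ΔDNMT3A were -2.35 (SE 0.0609, adjusted p = 5.67e-17) in DNMT3A1 and -3.70 (SE 0.0682, adjusted p = 1.68e-22) in DNMT3A2. IFI35 changed by -0.32 and -1.78.

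Of the 4 IFIT genes, 3 were lower than in ΔDNMT3A in DNMT3A1 and 4 in DNMT3A2, and of the 4 genes of RNA-sensing helicases, 3 in each line. Among all genes tested, 30.3% were called lower in DNMT3A1 and 34.1% in DNMT3A2. The 2 genes of double-stranded RNA effectors, EIF2AK2 and ADAR, were both called lower in DNMT3A2, and in DNMT3A1 EIF2AK2 was called higher and ADAR did not pass. IFIT1 held 1.84, 0.918 and 2.36 CPM in DNMT3A1 and 2.49, 0.968, 1.03 and 1.04 in DNMT3A2, against 9.36 or more in every ΔDNMT3A library, with changes of -2.50 (SE 0.161, adjusted p = 5.56e-11) and -2.88 (SE 0.163, adjusted p = 1.99e-13). IFIH1, the gene of MDA5, was at 9.73, 10.6, 9.82 and 10.8 CPM in the WT libraries, at 11, 9.71, 10.4 and 10.1 in those of ΔDNMT3A, at 2.56, 2.6 and 2.87 in the DNMT3A1 libraries and at 1.07, 0.784, 1.1 and 1.1 in those of DNMT3A2. WT and ΔDNMT3A overlapped, and every library of the isoform lines was lower than either. The log2 changes against ΔDNMT3A were -1.94 (SE 0.0947, adjusted p = 8.97e-13) in DNMT3A1 and -3.33 (SE 0.109, adjusted p = 6.05e-18) in DNMT3A2. DDX60, a helicase that works with these sensors, changed by -3.65 and -4.13, and XAF1, a pro-apoptotic interferon target, by -3.76 and -4.51. Both were near 0 in the isoform lines. DDX60 had 2 to 6 reads per library in DNMT3A1 and 2 to 3 in DNMT3A2, against 44 to 60 in ΔDNMT3A. XAF1 had 2 to 4 and 1 to 2, against 40 to 64. Neither could be tested between the isoform lines. DDX58 was higher in DNMT3A1 by 0.36 (SE 0.0615, adjusted p = 3.76e-05) and not past the threshold in DNMT3A2 (-0.12, adjusted p = 0.0903).

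OAS1 was at 8.27, 7.92 and 7.49 CPM in DNMT3A1 and at 3.75, 4.1, 4.21 and 3.98 in DNMT3A2, lower than in ΔDNMT3A, with a log2 change of -1.30 (SE 0.0803, adjusted p = 3.21e-11) and -2.28 (SE 0.0844, adjusted p = 6.43e-17). OAS3 was at 46, 51.3, 52.8 and 53.4 CPM in the WT libraries, at 40.8, 45.2, 46.4 and 44.2 in those of ΔDNMT3A, at 23.7, 23.9 and 22.2 in the DNMT3A1 libraries and at 5.69, 6.27, 6.33 and 5.86 in those of DNMT3A2, and its changes were -0.92 (SE 0.0541, adjusted p = 1.41e-11) and -2.87 (SE 0.0602, adjusted p = 1.59e-21). All 3 tested OAS genes were lower in each isoform line, where 30.3% (DNMT3A1) and 34.1% (DNMT3A2) of all genes were called lower. MX1, already low in ΔDNMT3A, was lower still, at 0.853, 0.957 and 0.816 CPM in DNMT3A1 and 0.276, 0.184, 0.212 and 0.162 in DNMT3A2 (-1.07, SE 0.182, adjusted p = 3.8e-05, and -3.12, SE 0.237, adjusted p = 4.22e-11). GBP1 came down from the level of ΔDNMT3A to 1.41, 1.76 and 1.44 CPM in DNMT3A1 and 0.75, 0.922, 0.672 and 0.81 in DNMT3A2 (-1.54, SE 0.134, adjusted p = 5.08e-09, and -2.50, SE 0.139, adjusted p = 1.41e-13), and all 5 MX and GBP genes were lower in each line. IFITM3 came down to 5.48, 6.31 and 5.55 CPM in DNMT3A1 and 7.03, 6.82, 5.73 and 5.57 in DNMT3A2, with a log2 change of -1.26 (SE 0.0799, adjusted p = 4.7e-11) and -1.15 (SE 0.0799, adjusted p = 8.83e-12).

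ISG15 was at 5.15, 5.05 and 5.8 CPM in DNMT3A1 and at 7.94, 8.58, 8.03 and 8.19 in DNMT3A2, with changes of -1.39 (SE 0.0813, adjusted p = 1.33e-11) and -0.79 (SE 0.068, adjusted p = 3.99e-10) against ΔDNMT3A. Its level was the lower of the pair in DNMT3A1. UBE2L6 was at 20.1, 20.4 and 20.2 CPM in DNMT3A1 and at 15.2, 15.8, 15.5 and 16.4 in DNMT3A2 (-0.71, SE 0.0486, adjusted p = 1.41e-10, and -1.08, SE 0.0485, adjusted p = 2.56e-15). DHX58 held 0.657, 0.651 and 0.873 CPM in DNMT3A1 and 0.434, 0.231, 0.177 and 0.0972 in DNMT3A2, both below ΔDNMT3A. GBP3 held 0.952, 0.459 and 0.845 CPM in the former and 0.395, 0.231, 0.389 and 0.518 in the latter. SAMD9 held 1.71, 1.53 and 1.94 CPM in DNMT3A1 and 0.197, 0.369, 0.602 and 0.0972 in DNMT3A2, a change against ΔDNMT3A of -0.44 (SE 0.158, adjusted p = 0.0212) in DNMT3A1, which did not pass within either sequencing lane (adjusted p = 0.0511 and 0.337), and of -2.92 (SE 0.27, adjusted p = 1.46e-09) in DNMT3A2. IFIT2 held 1.05, 1.38 and 1.75 CPM in DNMT3A1 (-0.38, adjusted p = 0.0906) and 1.66, 1.06, 1.38 and 1.13 in DNMT3A2 (-0.49, SE 0.17, adjusted p = 0.0142). LGALS3BP and BST2, the abundant members, changed by -1.16 and -0.55 in DNMT3A1 and by -1.71 and -1.72 in DNMT3A2, while EIF2AK2, ADAR and PARP14 changed by 0.16, -0.06 and 0.14 in DNMT3A1 and by -0.16, -0.12 and -0.20 in DNMT3A2.

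**Figure D3:**
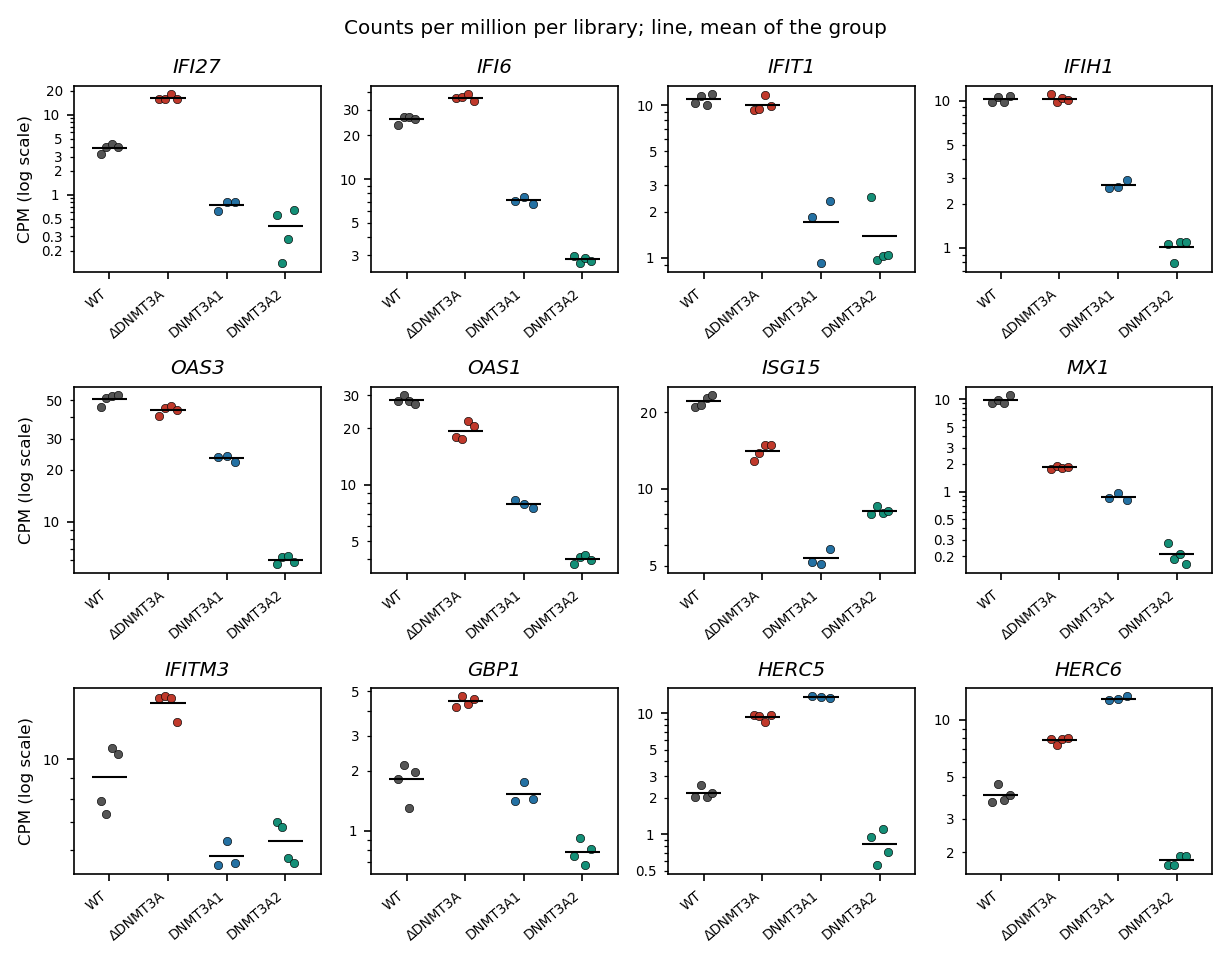
CPM (vertical axis, log scale, set separately for each gene) of 12 members in each Caco-2 library; points are libraries and the line is the mean of each group (n = 4, and 3 for DNMT3A1). IFI27, IFI6, IFIT1, IFIH1, OAS3, OAS1, ISG15, MX1 and IFITM3 lie lower in DNMT3A1 and DNMT3A2 than in WT, whereas HERC5 and HERC6 are highest in DNMT3A1 and lowest in DNMT3A2.

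Against WT rather than ΔDNMT3A, 24 of 44 members tested were lower in DNMT3A1 (54.5%, where 32.7% of all genes were called lower) and 8 were higher (18.2%, where 32.6% were). In DNMT3A2, 39 of 43 were lower (90.7%, where 34.4% of all genes were) and 2, IFIT2 and IFITM2, were higher (4.65%, where 34.3% were). The medians were -0.42 in DNMT3A1 and -1.40 in DNMT3A2. Many members were therefore not at the WT level in the isoform lines but below it. MX1 was lower than in WT, with a log2 change of -3.49 (SE 0.13, adjusted p = 6.91e-18) in DNMT3A1 and -5.55 (SE 0.164, adjusted p = 8.34e-23) in DNMT3A2, IFI27, with a log2 change of -2.35 (SE 0.172, adjusted p = 6.71e-12) and -3.18 (SE 0.211, adjusted p = 3.78e-14), and IFIT1, with a log2 change of -2.63 (SE 0.145, adjusted p = 2.23e-14) and -3.02 (SE 0.147, adjusted p = 2.12e-17). IFI6 (-1.86 and -3.22), OAS1 (-1.84 and -2.83), ISG15 (-2.04 and -1.45) and IFITM3 (-0.66 and -0.56) were also called lower than in WT in each line, the last not within lane 5 for DNMT3A2 (adjusted p = 0.248). The 8 members above WT in DNMT3A1 were IFIT2, IFITM2, DDX58, HERC5, HERC6, TRIM5, TRIM21 and PARP14.

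A member was counted as brought back when its change in ΔDNMT3A was called, the isoform line differed from ΔDNMT3A in the opposite direction, and the line was not past the threshold from WT in the direction of the loss. This held in both isoform lines for 15 of the 44 members tested in ΔDNMT3A against WT (34.1%), beside 10.9% of all genes tested. With each change at least 2-fold it held for 3 members, and the share of all genes at that limit is not given here. The 15 were IFIT3, IFITM3, DHX58, UBE2L6, MX2, GBP1, GBP2, GBP3, ISG20, IFI27, IFI6, SP100, SAMD9, SAMD9L and LGALS3BP. SAMD9L was too low to be tested against WT in either isoform line, so its last condition was met without a test. Over the 43 members tested in all 5 comparisons involved, 14 met the rule (32.6%), beside 11.1% of all genes so tested. All 15 had risen in ΔDNMT3A. The count does not ask for the WT level. Of the 15, IFI27, IFI6, IFIT3, IFITM3, MX2, SP100 and LGALS3BP were called lower than WT in each isoform line. None of the 11 members that had fallen in ΔDNMT3A was counted in both lines. DDX58 and EIF2AK2 were counted in DNMT3A1, and HERC5, HERC6, TRIM5, TRIM21 and TRIM22 in DNMT3A2. The comparisons behind these counts share their WT and ΔDNMT3A libraries.

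The isoform lines were also compared with each other. Of 39 members tested, 29 were higher in DNMT3A1 than in DNMT3A2 (74.4%, where 34.5% of all genes were called higher) and 4 were lower (10.3%, where 33.9% were), namely IFITM2, ISG15, PML and PLSCR1. The median was 0.76. HERC5 differed most, with 13.7, 13.6 and 13.4 CPM in DNMT3A1 and 0.948, 0.553, 1.1 and 0.713 in DNMT3A2, a difference of 4.01 (SE 0.123, adjusted p = 8.57e-20). It was above ΔDNMT3A in DNMT3A1, by 0.54 (SE 0.0659, adjusted p = 6.1e-07), and below it in DNMT3A2, with a log2 change of -3.48 (SE 0.129, adjusted p = 6.83e-17). HERC6 was at 12.7, 12.9 and 13.3 CPM in DNMT3A1 and 1.7, 1.71, 1.91 and 1.91 in DNMT3A2 (2.83, SE 0.0951, adjusted p = 5.29e-19), again above ΔDNMT3A in the former (0.73) and below it in the latter (-2.11). No library of DNMT3A1 overlapped a library of ΔDNMT3A or DNMT3A2 for either gene, both named for their large difference. The share of all genes without overlap is not given here. The 3 other members with opposite calls were TRIM21 (0.17 and -1.25), EIF2AK2 (0.16 and -0.16) and PARP14 (0.14 and -0.20), the last 2 small in size. OAS3 was higher in DNMT3A1 by 1.95 (SE 0.0674, adjusted p = 9.93e-19) and TRIM22, with 1.28, 0.957 and 0.985 CPM in DNMT3A1 and 0.197, 0.0922, 0.142 and 0.0324 in DNMT3A2, by 3.20 (SE 0.379, adjusted p = 3.97e-08). Of the members that were low in either line, IFI27 differed by 0.83 (SE 0.341, adjusted p = 0.0349), which did not pass within either lane, IFIT1 by 0.36 (SE 0.288, adjusted p = 0.274), or by 0.79 (adjusted p = 0.0125) without DNMT3A2 replicate 1, and IFITM3 by -0.11 (SE 0.101, adjusted p = 0.325). DNMT3A1 and DNMT3A2 are the long and the short isoform of the enzyme, and isoform and clone cannot be told apart here.

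Many members lie next to each other, 29 of the 50 in 12 groups within 1 megabase. The 4 IFIT genes span 137.3 kilobases on chromosome 10, OAS1, OAS3 and OAS2 span 104.9 on chromosome 12, and HERC6 and HERC5 span 127.4 on chromosome 4. To see whether these stretches moved as a whole, each tested member was set beside the 50 tested genes nearest to it in order on its chromosome, other members left out. In ΔDNMT3A against WT the neighbourhood medians ranged from -0.51 to 0.60. In DNMT3A2 against ΔDNMT3A the medians of these neighbourhoods ranged from -0.49 to 0.20 and had a median of -0.01, while the members had a median of -1.75. In DNMT3A1 against ΔDNMT3A they ranged from -0.21 to 0.48. Around MX1, the 49 neighbours had a median of -0.004 in ΔDNMT3A against WT and of -0.04 in DNMT3A2 against ΔDNMT3A, where MX1 itself changed by -2.42 and -3.12. Other members moved with their stretch in some comparisons. TRIM5 was at -0.82 in DNMT3A2 against ΔDNMT3A beside a neighbourhood median of -0.49 (34 of 48 lower), and at 0.46 in DNMT3A1 against WT beside 0.47 (35 of 48 higher). IFITM1 in DNMT3A2 against ΔDNMT3A was at -0.36 beside -0.43 (37 of 48 lower), and EIF2AK2 at -0.16 beside -0.40. In ΔDNMT3A against WT both lay apart from their stretch, IFITM1 at -1.48 beside -0.006 and EIF2AK2 at -0.15 beside 0.60 (42 of 50 higher). IFI27 in DNMT3A1 against ΔDNMT3A went the other way from its stretch, -4.43 beside 0.48. These members were named after their values were seen, except IFI27, and the part of the stretch in their values was not tested.

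Other genes of the interferon pathway were read from 8 further lists with 57 genes. Against ΔDNMT3A, 36 of 44 tested were lower and 2 higher in DNMT3A2, where 34.1% and 33.8% of all genes were, and 24 of 44 were lower and 8 higher in DNMT3A1, where 30.3% and 30.4% of all genes were. In ΔDNMT3A against WT, 18 of 45 were higher and 10 lower, beside 31.2% and 31.0% of all genes, which is not far from these shares. The interferon-inducible chemokines moved most. CXCL10, which draws T cells to inflamed tissue, averaged 0.274 ± 0.116 CPM (SD) in the WT libraries, 1.63 ± 0.203 in those of ΔDNMT3A, 0.175 ± 0.0145 in DNMT3A1 and 0.0081 ± 0.0162 in DNMT3A2. It rose in ΔDNMT3A by 2.51 (SE 0.248, adjusted p = 4.03e-09), from 4 to 16 reads per library to 41 to 65, and CXCL9 and CXCL11 rose as well, by 2.01 (SE 0.231, adjusted p = 5.5e-08) and 2.39 (SE 0.409, adjusted p = 1.94e-05). All 3 were called lower than in ΔDNMT3A in each isoform line, where they were near 0. CXCL9, CXCL10 and CXCL11 had at most 9, 6 and 3 reads in a DNMT3A1 library and at most 2, 1 and 4 in a DNMT3A2 library. They passed the filter in these comparisons through the ΔDNMT3A libraries. Against WT, 1 of the 3 was tested in DNMT3A1 and not called, and 0 were tested in DNMT3A2. Genes of antigen presentation were for the most part lower in the isoform lines. PSMB8, a subunit of the immunoproteasome, averaged 2.51 ± 0.551 CPM in the WT libraries, 3.02 ± 0.138 in those of ΔDNMT3A, 0.58 ± 0.188 in DNMT3A1 and 0.0589 ± 0.0687 in DNMT3A2, lower than in ΔDNMT3A, with a log2 change of -2.41 (SE 0.202, adjusted p = 2.85e-09) and -5.44 (SE 0.312, adjusted p = 2.48e-13). TAP1, a subunit of the peptide transporter, was lower, with a log2 change of -1.30 (SE 0.113, adjusted p = 4.67e-09) and -3.63 (SE 0.172, adjusted p = 6.74e-15). NLRC5, the transactivator of MHC class I genes, had risen in ΔDNMT3A by 1.72 (SE 0.177, adjusted p = 8.8e-09) and was lower than there in DNMT3A1 and DNMT3A2, with a log2 change of -2.19 (SE 0.211, adjusted p = 2.18e-08) and -2.30 (SE 0.209, adjusted p = 1.07e-09). All 11 tested genes of this list were lower in DNMT3A2, and 7 were lower and 4 higher in DNMT3A1, among them HLA-B (0.52, SE 0.0502, adjusted p = 2.47e-08).

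Signalling genes changed in either direction. JAK2, a kinase of the interferon-γ receptor, rose in ΔDNMT3A by 1.18 (SE 0.122, adjusted p = 9.58e-09) and was lower than there in DNMT3A2, with a log2 change of -1.55 (SE 0.155, adjusted p = 5.2e-09). IL10RB, a subunit of the type III receptor, and IRF5 were lower in DNMT3A2 than in ΔDNMT3A as well, with log2 changes of -1.10 and -1.05. STAT2 and IRF9, parts of the complex that binds the ISRE, were lower in DNMT3A2, with a log2 change of -0.49 (SE 0.0335, adjusted p = 6.13e-12) and -0.76 (SE 0.157, adjusted p = 0.000169), whereas in DNMT3A1 STAT2 was higher, by 0.18 (SE 0.0358, adjusted p = 0.000189), and IRF9 did not pass (-0.12, SE 0.142, adjusted p = 0.474). All 7 interferon regulatory factors were lower in DNMT3A2 than in ΔDNMT3A, and 2 of 7 in DNMT3A1, beside 34.1% and 30.3% of all genes. Of the 6 receptor subunits, 5 were lower in DNMT3A1 and 5 in DNMT3A2, beside 30.3% and 34.1% of all genes. The changes of the receptor subunits were small, with medians of -0.316 and -0.245. IFNGR1, which binds interferon-γ, had risen in ΔDNMT3A from 93.7 ± 1.86 to 174 ± 7.83 CPM (0.88, SE 0.0323, adjusted p = 3.38e-17) and was back at 92.4 ± 2.94 and 88.3 ± 2.12 CPM in the isoform lines.

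The libraries of each Caco-2 line were sequenced in 2 lanes, 5 and 6, each of which held libraries of all 4 genotypes. DNMT3A1 had 1 library in lane 6, and its spread was taken from the other line in the fit. In ΔDNMT3A against WT, 21 of 45 members tested were higher and 14 lower within lane 5, where 26.0% and 25.9% of all genes were, and 21 and 10 of 44 within lane 6, where 24.9% and 24.9% were. The medians were 0.23 and 0.29. In DNMT3A1 against ΔDNMT3A, 29 of 45 were lower and 7 higher within lane 5 (27.3% and 27.1% of all genes), and 28 and 3 of 44 within lane 6 (20.1% and 20.2%). In DNMT3A2 against ΔDNMT3A, 38 of 44 were lower and 1 higher within lane 5 (30.1% and 29.3% of all genes), and 41 and 0 of 44 within lane 6 (28.4% and 27.4%). In DNMT3A1 against WT, 22 of 44 were lower and 8 higher within lane 5 (29.6% and 29.2% of all genes), and 25 and 7 of 45 within lane 6 (26.9% and 26.3%). In DNMT3A2 against WT, 37 of 43 were lower and 2 higher within lane 5 (29.1% and 29.6% of all genes), and 39 and 2 of 43 within lane 6 (30.1% and 30.2%). Between the isoform lines, 27 of 40 were higher in DNMT3A1 and 3 lower within lane 5 (31.4% and 30.4% of all genes), and 27 and 4 of 40 within lane 6 (28.4% and 28.1%). Nothing in the labels says that libraries of a line came from separate cultures, so the p-values measure the spread between these libraries, which may be technical.

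In the colonic epithelium of the mice, 39 of the 41 members were tested (Ifitm1 and Ifi44l were too low, the latter without a read), and none was called between ΔIEC and fl/fl by edgeR's quasi-likelihood test, neither higher (0.0%, where 0.602% of all genes were called higher) nor lower (0.0%, where 0.0889% were). At an unadjusted p under 0.05 there were 5 members, where 14.1% of all genes had such a p, and DESeq2 called 1 higher and 0 lower, where it called 1.78% of all genes higher and 1.01% lower. The median change was 0.03 beside -0.004 for all genes, and single members lay between -0.25 and 0.74. The standard errors of the members had a median of 0.198, beside 0.0794 in ΔDNMT3A against WT, so a change of the size called in Caco-2 could go undetected here. In a sorted population, fewer cells of a type and less RNA per cell cannot be told apart.

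**Figure D4:**
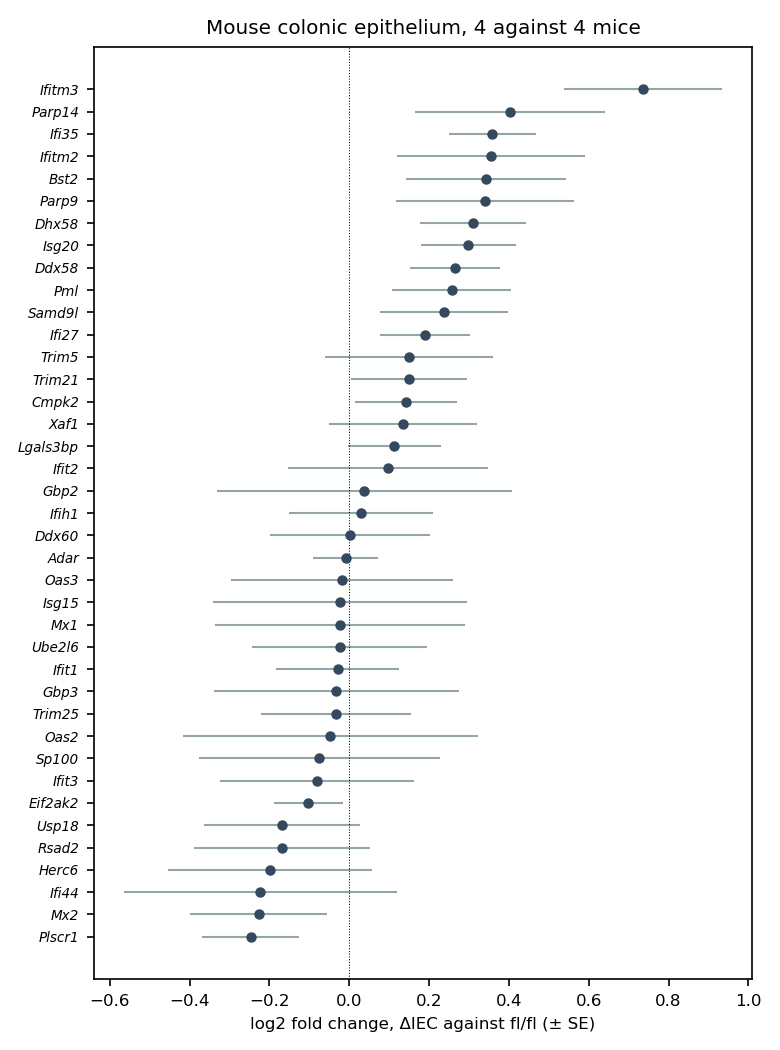
Log2 fold change of the 39 tested mouse members (rows, ordered by the change) in ΔIEC against fl/fl, 4 animals each; bars are standard errors. Values run from -0.25 for Plscr1 to 0.74 for Ifitm3, and none passed an adjusted p of 0.05 in edgeR.

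Ifitm3, the mouse counterpart of IFITM3 on chromosome 7, had the lowest p. Its level was 2.81, 2.73, 3.19 and 3.96 CPM in the fl/fl animals and 6.57, 5.89, 4.33 and 4.4 in the ΔIEC animals. All 4 ΔIEC values exceeded all 4 fl/fl values, with a log2 difference of 0.74 (SE 0.198, adjusted p = 0.17) in edgeR and an adjusted p of 0.0325 in DESeq2. Ifi35 (0.36, SE 0.109, adjusted p = 0.201), Isg20 (0.30, SE 0.119, adjusted p = 0.302), Ddx58 and Dhx58 were the other members with an unadjusted p under 0.05, all with the higher mean in ΔIEC. The 5 members with the highest level per kilobase in fl/fl were Plscr1, Trim25, Lgals3bp, Samd9l and Ifih1. Plscr1, a phospholipid scramblase, was at 178, 172, 189 and 149 CPM in fl/fl and 144, 130, 129 and 177 in ΔIEC (-0.25, SE 0.122, adjusted p = 0.393). Trim25, the ligase that activates RIG-I, was at 356, 515, 306 and 387 CPM in fl/fl and at 295, 333, 442 and 459 in ΔIEC (-0.03, SE 0.187, adjusted p = 0.957). These groups overlapped, as did Lgals3bp (0.11, SE 0.117, adjusted p = 0.706), Samd9l (0.24, SE 0.16, adjusted p = 0.539) and Ifih1 (0.03, SE 0.18, adjusted p = 0.961).

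Of the members named in Caco-2, Ifi27 was at 19.7, 17.6, 15.7 and 15.6 CPM in fl/fl and 21, 18.5, 18 and 20.6 in ΔIEC (0.19, SE 0.112, adjusted p = 0.472), Mx1 at 16.3, 37.9, 20.1 and 23.6 in fl/fl and 15, 17.8, 25 and 38.5 in ΔIEC (-0.02, SE 0.314, adjusted p = 0.984) and Isg15 at 6.51, 14.1, 4.73 and 8.66 in fl/fl and 6.49, 6.04, 10.4 and 10.5 in ΔIEC (-0.02, SE 0.318, adjusted p = 0.984). Ptprc, the pan-leukocyte marker, was at 4.08 CPM in ΔIEC and 1.85 in fl/fl (1.13, adjusted p = 0.0642), and its part in these values was not tested. Over the 7 tested genes of the leukocyte list, Ptprc among them, the median log2 change was -0.17, and none was called. In fl/fl, animal 2 had the highest value for 20 of the 39 members and animal 3 the lowest for 24, and in ΔIEC animal 4 had the highest for 23 and animal 1 the lowest for 20. Without fl/fl animal 2 the median change was 0.16 and still none passed. A list of 33 further mouse interferon genes, 23 of them tested, gave no call either, with Ifi47 showing the largest change (1.38, adjusted p = 0.178). Of the pathway lists, 41 genes were tested and 1 passed, Ptpn6, which encodes the phosphatase SHP-1 (0.61, adjusted p = 0.0499), and the immunoproteasome genes Psmb8, Psmb9 and Psmb10 changed by 0.80, 0.66 and 0.53 with adjusted p-values of 0.135, 0.134 and 0.181. The mouse counts did not use the strand of the reads, so reads from an overlapping gene on the other strand cannot be told apart.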

How the data were processed

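RNA-seq was done on 15 Caco-2 libraries and 8 mouse libraries. The authors trimmed adapters, aligned with STAR and counted reads per gene with featureCounts, by strand for human (GENCODE 25, GRCh38) and without strand for mouse, and reads that map to several places were not counted. The deposited values are raw counts, used here as deposited. Genes were filtered with filterByExpr, scaled by TMM and tested for each pair of groups with edgeR 4.0.16 (R 4.3.3) in its quasi-likelihood test, p-values being adjusted by Benjamini-Hochberg across every gene tested. Standard errors were taken as the log2 change divided by the root of F. DESeq2 1.42.0, other scalings, filters, left-out libraries, lanes and a replicate block were alternatives, and the fits were tested on simulated data. Named genes were the 12 members with at least 1 CPM that changed most in ΔDNMT3A, the 5 that changed most in each isoform line against ΔDNMT3A, the 3 that differed most between these lines, the 5 highest per kilobase in mouse, Ifitm3, and the readouts IFITM3, IFI27, ISG15, IFIT1, MX1 and OAS1. Genes outside this rule were named after their values were seen. Members and lists were chosen with earlier results of these data known, and part of the members belong to a gene list that the study drew from these samples, which is not independent evidence of their direction. Counting error falls with depth, which was 22104408 to 42161299 counts in Caco-2 and 16943626 to 24921248 in mouse. Some genes of the pathway and marker lists are not reported here.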

Additional observations from a re-analysis of the deposited data

Results flagged for a closer look

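A library that lay apart from the other 3 of its group was found for 7 of 74 values tested, where chance gives about 1 in 20. DHX58 was at 0.543 CPM in WT replicate 2, with the others at 0.806 to 0.829. HERC6 was at 7.34 CPM in ΔDNMT3A replicate 2 (others 7.94 to 8.04), IFI27 at 17.9 in ΔDNMT3A replicate 3 (others 15.5 to 15.9) and IFITM3 at 12.4 in ΔDNMT3A replicate 4 (others 14.2 to 14.3). In DNMT3A2, IFIH1 was at 0.784 CPM in replicate 2 (others 1.07 to 1.1) and IFIT1 at 2.49 in replicate 1 (others 0.968 to 1.04). Ifit1 was at 26.3 CPM in fl/fl replicate 3, with the others at 35.1 to 35.8.

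For 5 members, DNMT3A1 was above ΔDNMT3A and DNMT3A2 below it, and the direct comparison of the isoform lines passed. The log2 differences were 4.01 for HERC5, 2.83 for HERC6, 1.41 for TRIM21, 0.33 for PARP14 and 0.31 for EIF2AK2. The median differences of their neighbouring genes were, in the same order, 0.135, 0.135, 0.688, 0.082 and 0.659. The part of the stretch in these differences was not tested.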

How the results depend on the processing

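No member count changed direction under the alternatives tried. Of the recomputed counts, 216 stayed within 1.5 times the main count and 15 did not. Of the values of named genes, 1760 kept their direction and side of the threshold, 21 lost the call and 13 gained it, and none changed direction after a call. A threshold of at least 2-fold left 8 members higher and 2 lower in ΔDNMT3A against WT, 0 and 17 in DNMT3A1 against ΔDNMT3A, 3 and 13 in DNMT3A1 against WT, and 13 and 0 in DNMT3A1 against DNMT3A2. At that threshold 0 members were higher in DNMT3A2 against ΔDNMT3A, 1 was higher in DNMT3A2 against WT, and 3 met the rule for both isoform lines. Shares of all genes at that threshold stand above for ΔDNMT3A against WT and for the isoform lines against ΔDNMT3A. They are not given here for the other comparisons or for the rule, so those counts cannot be set beside all genes. Within lane 6, 3 members were higher in DNMT3A1 and 0 in DNMT3A2 against ΔDNMT3A. The rise of IFITM2 in DNMT3A2 against ΔDNMT3A rested on DNMT3A2 replicate 1, since the count ranged from 0 to 1 when each library was left out and was 0 without it. DESeq2 called 1 mouse member higher. The cause of these shifts was not tested. IFIT1 differed between the isoform lines by 0.36 (adjusted p = 0.274 in edgeR), and by 0.79 (adjusted p = 0.0125) without DNMT3A2 replicate 1. IFI27 in the same comparison missed the threshold in DESeq2 (adjusted p = 0.071) and with the replicate block (adjusted p = 0.0841).

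Replicate numbers are shared between lines in the labels. Over 21 pairs of libraries with the same number, the correlation of deviations from the group mean ran from -0.161 to 0.131, with 1 above 0.1, and 6 of 15 libraries matched best with their own number, so the numbers were not taken to pair the samples. With the replicate block, 23 members were higher and 11 lower in ΔDNMT3A against WT, 6 and 31 in DNMT3A1 and 1 and 40 in DNMT3A2 against ΔDNMT3A. Members with few reads, such as SAMD9L and RSAD2, are limited by counting error.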
